A study of Homo sapiens with 12 samples.

Results

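BEAS-2B, a line of human bronchial epithelial cells immortalised with a virus, was compared after 6 h in 0.25% poultry dust extract with the same line kept in medium alone. The comparison used 4 of the 12 Illumina bead arrays of the study, 2 control arrays and 2 dust extract arrays, numbered 1 and 2 in each group. The other 8 arrays held BEAS-2B after 1 h of extract and A549, a human lung adenocarcinoma line, under the same 3 conditions. All cells, controls included, had been starved of serum overnight before treatment, and the labels give no time in culture for the medium controls. The labels do not say that numbers 1 and 2 came from separate cultures, so the p-values below measure only a spread between arrays, which may be technical. That spread was estimated for each gene over all 12 arrays, A549 and 1 h included, and drawn towards a value shared by all genes. It is not the spread of the 4 compared arrays alone. The members of the comparison are all genes: 20060 features were tested, of which 13035 carried 1 gene symbol and 7025 carried none here.

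The bronchial epithelium is the first tissue to meet inhaled organic dust. Its cells sense microbial products and proteases through Toll-like and protease-activated receptors, and they answer with waves of transcription: immediate early transcription factors come first, and cytokines, growth factors and feedback inhibitors of kinase signalling follow. Epithelial cells also answer injury through ligands of the epidermal growth factor (EGF) receptor, which membrane proteases release from the cell surface, and by changing keratins, junction proteins and adhesion molecules.

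The identity of the cells was checked on the same 4 arrays, where a probe counts as detected at a detection p under 0.05. All 6 epithelial markers (KRT8, KRT18, KRT19, KRT7, EPCAM and CDH1) were detected on all 4 arrays. VIM, CDH2 and CAV1, commonly described in BEAS-2B, were detected on all 4 as well, but also on both A549 controls, so they do not tell the lines apart. KRT5, another such marker, was detected on all 4 BEAS-2B arrays and on neither A549 control. Of the 7 A549 markers, AKR1B10, AKR1C2 and ALDH1A1 were detected on both A549 controls, at mean log2 signals of 14.36, 14.63 and 14.53, and lay between 4.60 and 5.40 on the 4 BEAS-2B arrays. SFTPB, SFTPC and NKX2-1 were detected on neither A549 control and NAPSA on 1, so these 4 could not serve as a check. None of the 4 endothelial markers was detected, and COL1A1 alone of 6 fibroblast markers was detected throughout. Of 6 measured leukocyte markers, CD14, CD68 and LYZ were detected on all 4 arrays, while PTPRC, CD163 and CD3E were detected on none. CD14, CD68 and LYZ were also detected on both A549 controls, so their detection was not particular to BEAS-2B. The leukocyte markers summed to 864 and 710 normalized units in control and extract on number 1 and to 1505 and 1682 on number 2, so they did not move one way with the extract. The 4 arrays detected 38.7 to 39.9% of the 47320 probes, and the number of arrays limits the precision.

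By the count of features at least 2-fold apart, the arrays of numbers 1 and 2 differed from each other more than extract differed from control. Such a difference separated the 2 control arrays at 1138 features and the 2 extract arrays at 984 features, against 474 features between extract and control on number 1 and 379 on number 2. The 31 measured members of a list of interferon-stimulated genes were among the genes that differed: their median log2 signal in control was 12.09 on number 1 and 7.59 on number 2, and all 31 were higher on number 1. All 12 arrays lay on 1 chip, and the arrays of the 2 numbers occupied different positions on it, so number and position cannot be told apart. For this reason the change was taken within each number and the number entered the fit as a block. The changes on numbers 1 and 2 had a Pearson correlation of 0.277 and a Spearman correlation of 0.232 across the 20060 features, which share probes and chip and are not independent, and 58.7% of features had the same sign on both numbers.

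After 6 h of extract, 114 of the 20060 features passed an adjusted p of 0.05 (limma with the replicate block, Benjamini-Hochberg), which is 0.568% of those tested. Of these, 89 were higher (0.444%) and 25 lower (0.125%). They comprised 96 named genes, 72 higher and 24 lower, whose changes ran from 0.92 to 3.48 and from -2.39 to -0.87 on the log2 scale. The 2 control arrays and the 2 extract arrays did not overlap for 87 of the 96 named genes, while 31.9% of all features showed no overlap. The remaining 9 (APOL1, TRIM5, SH2D5, HBEGF, AMOT, ADAM19, FOSL1, ALDH3A1 and TRANK1) moved the same way on both numbers but overlapped because the numbers started from different levels. For 58 of the 72 higher genes the change was larger on number 2. In RNA from whole cultures, fewer cells of a type and less RNA per cell cannot be told apart.

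The count rests on the block and on every array. Without the block 13 features passed (0.0648%), 12 higher (0.0598%) and 1 lower (0.00499%), and 10 of them were named: IL24, MALL, KRT23, IL1B, ADAM8, SPOCD1, CREB5, C1orf74, PALM2 and KANK4. Leaving out an array left 43 features without BEAS-2B control 1, 14 without BEAS-2B control 2, 48 without 6 h array 1, 13 without 6 h array 2 and 92 without either 1 h array. The A549 arrays enter through the shared variance, and 24 features passed without either A549 control, 32 without either A549 1 h array and 63 without either A549 6 h array. KRT23, IL24, SCG5, ADAM8 and MALL passed in all 12 of these fits. The median named gene passed in 4 of 12. With only the 6 BEAS-2B arrays 8 features passed, and with only the 4 arrays compared KRT23 alone did.

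**Figure D1:**
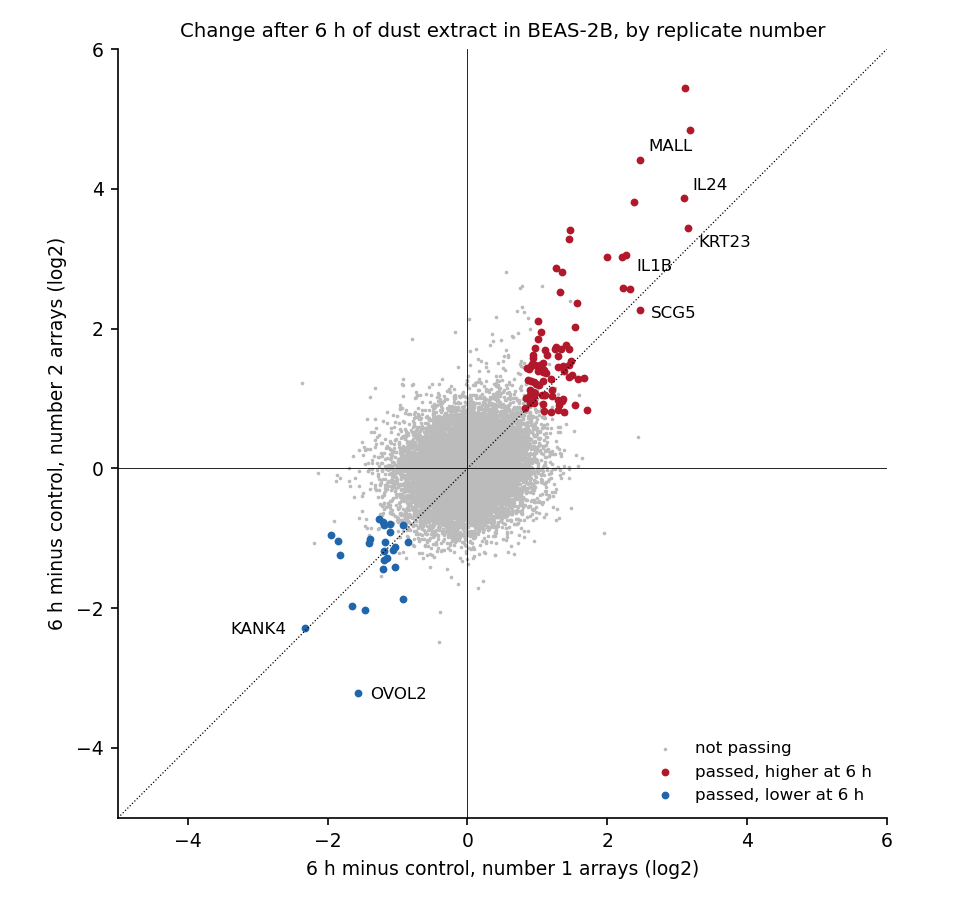
Each point is 1 of 20060 features, placed by its log2 difference between 6 h dust extract and control on the number 1 arrays (x axis) and on the number 2 arrays (y axis). Red and blue points are the 89 higher and 25 lower features that passed, grey points did not, and the dotted line marks equal change; the passing features lie in the upper right and lower left, with most red points above the line.

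Of the cytokines, IL24 and IL1B were higher, as 2 of the 21 measured members of an interleukin and cytokine list. Over all features tested, 0.444% passed as higher and 0.125% as lower, and these shares stand beside each list count below. IL24, a cytokine of the interleukin-10 family that acts on epithelial cells, had a log2 signal of 7.13 and 6.03 in controls 1 and 2 and of 10.23 and 9.90 at 6 h. Its change was 3.48 ± 0.22 (adjusted p = 0.000311), the largest of any named gene, and a second IL24 probe gave 2.74. Here and below, ± gives the SE of the fit to all 12 arrays, with 2 arrays per group. IL1B, a central proinflammatory cytokine, went from 8.25 and 7.20 to 10.52 and 10.25, a change of 2.67 ± 0.25 (adjusted p = 0.00285). Both genes were well separated between the groups, and both had already passed at 1 h, with changes of 3.05 and 2.90 there.

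Other inflammatory genes had not passed at 6 h. CXCL8, which attracts neutrophils, read 8.75 and 7.49 in controls and 9.81 and 10.10 at 6 h, a change of 1.84 ± 0.36 (adjusted p = 0.0673). IL1A had a change of 1.53 (adjusted p = 0.0689). PTGS2, the inducible cyclooxygenase, was not well above background in either control and read 5.47 and 6.59 at 6 h, at least 1.72-fold higher (adjusted p = 0.0571). These 3 genes each had a larger change on number 2, and all 3 had passed at 1 h. CXCL2 was below background in both controls, at least 1.51-fold higher at 6 h. TNFAIP3 (0.84), ICAM1 (0.50), CXCL1 (0.46), IL6 (0.22) and CCL20 (0.08) also had smaller changes than CXCL8, and adjusted p for these 6 genes ran from 0.365 to 0.967. IL6 was lower by 0.48 on number 1 and higher by 0.92 on number 2. None of 16 chemokines and none of 22 genes of the NF-kB pathway passed, and the list medians were 0.01 and 0.10, beside -0.02 over all features.

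The EGF receptor list, which holds its ligands and the proteases that shed them, had 4 of 15 measured members higher and none lower, with a list median of 0.02. Over all features 0.444% passed as higher and 0.125% as lower. ADAM8, a membrane metalloprotease, read 5.57 and 4.78 in controls, where it was detected on 1 of 2 arrays, and 7.80 and 7.37 at 6 h, a change of 2.41 ± 0.19 (adjusted p = 0.000797). ADAM19, a related protease, went from 8.74 and 7.23 to 9.93 and 8.50, a change of 1.23 ± 0.21, and the groups overlapped because control 1 exceeded 6 h array 2. The ligand gene HBEGF went from 7.67 and 6.01 to 8.60 and 7.64 and also overlapped, with a change of 1.28 ± 0.21. TGFA, a second ligand, went from 7.47 and 7.24 to 8.54 and 8.63 with no overlap, a change of 1.23 ± 0.17, and another TGFA probe gave 1.30. The feedback inhibitors of this pathway also included passing genes, 2 of 19: DUSP6, a phosphatase of ERK kinases, rose by 1.42 ± 0.16 and SPRY4, a Sprouty protein, by 1.39 ± 0.19. The other SPRY4 probes gave 0.07 and 0.43. DUSP5 had a change of 1.07 that did not pass (adjusted p = 0.114). This list had the highest median of the 32 lists, 0.37.

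Among transcription factors, CREB5, a leucine zipper factor, rose from 5.87 and 5.05 to 7.20 and 7.58, a change of 1.93 ± 0.26 (adjusted p = 0.0184), although a second CREB5 probe, detected on none of the 4 arrays, gave 0.44. FOSL1, an AP-1 subunit, rose by 1.24 ± 0.22 with overlapping groups. These were 2 of 25 genes of the AP-1 and immediate early list, whose median was 0.00. FOSB, with a change of 0.00, and EGR1, with 0.69 (adjusted p = 0.181), did not pass. FOXA2, a pioneer factor of endoderm-derived epithelia, read 6.42 in both controls and 7.70 and 8.16 at 6 h, a change of 1.51 ± 0.18. HES2, a basic helix-loop-helix repressor, went from 4.82 and 6.14 to 6.16 and 7.85, a change of 1.53. The 6 h array of number 1 barely exceeded the control of number 2 for HES2. Control 2 of CREB5 and control 1 of HES2 were below background. ETV5, a factor of the ETS family, rose by 1.08.

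KRT23, a type I keratin, was not well above background in either control array (4.68 and 5.19) and read 7.84 and 8.63 at 6 h, at least 7.94-fold higher (fitted change 3.30 ± 0.19, adjusted p = 0.000237). It was the 1 passing gene among 12 keratins on the keratin list. KRT6C, which is outside that list, went from 8.91 and 6.25 to 10.26 and 9.06, a change of 2.09 ± 0.31, but its near-identical KRT6 relatives may bind the same probe, so the signal cannot be assigned to KRT6C alone. MALL, a proteolipid of membrane rafts, was detected in 1 of 2 controls (6.12 and 5.21) and reached 8.59 and 9.63, a change of 3.44 ± 0.35 (adjusted p = 0.0047). TGM2, a transglutaminase that crosslinks proteins, went from 8.95 and 6.49 to 10.95 and 9.52, a change of 2.51 ± 0.27, and its other 2 probes gave 0.76 and 1.50. S100A2, a calcium-binding protein of basal epithelial cells, went from 10.17 and 9.35 to 11.62 and 10.83, a change of 1.47 ± 0.16, nearly equal on the 2 numbers. EMP1, a tetraspan membrane protein, rose by 1.35 ± 0.21. GJB2, a connexin, and CLDN7, a claudin, rose by 1.43 and 1.18 as 2 of 22 junction genes. ITGA2, a collagen receptor subunit, went from 7.36 and 7.0 to 8.41 and 8.95, a change of 1.50 ± 0.24, as 1 of 16 integrins and adhesion molecules.

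FST, follistatin, which binds and blocks activin, went from 6.48 and 7.13 to 8.70 and 10.15, a change of 2.62 ± 0.25 (adjusted p = 0.00324), with 1.69 on a second probe. GREM1, an antagonist of bone morphogenetic proteins, rose by 1.45 ± 0.22. These 2 of 21 genes of the activin, TGF-beta and BMP list passed, while the list median was -0.07. IGFL1, a member of the insulin growth factor-like family, went from 7.77 and 7.93 to 9.35 and 10.29, a change of 1.97 ± 0.29. SCG5, a chaperone of a prohormone convertase, was detected on 1 of 2 controls (5.61 and 4.64) and read 8.08 and 6.91 at 6 h, a change of 2.37 ± 0.18 (adjusted p = 0.000797). SCG5 was among the steadiest genes, with 2.47 on number 1 and 2.27 on number 2.

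The remaining genes of the 24 largest rises had varied roles. GLIPR1, a secreted-protein family member, went from 8.41 and 6.24 to 9.88 and 9.66, a change of 2.44. SPOCD1, known from mice for a part in DNA methylation in germ cells, went from 5.66 and 4.62 to 7.12 and 7.90, a change of 2.37. ACTA1, skeletal muscle actin, went from 4.73 and 5.32 to 6.00 and 8.18, a change of 2.06. All 3 changed less on number 1 than on number 2. C1orf74, an open reading frame of unknown role, went from 8.09 and 7.65 to 9.63 and 9.67, a change of 1.78 ± 0.19. LOC606724 went from 6.26 and 5.54 to 7.68 and 7.32, a change of 1.59 ± 0.17. ANTXR2, a cell surface receptor for matrix proteins and anthrax toxin, went from 6.49 and 5.06 to 7.97 and 6.60, a change of 1.51. In these 3 genes the changes on the 2 numbers were closer to each other. GPRC5A, an orphan receptor induced by retinoic acid, went from 7.17 and 6.90 to 8.43 and 8.60, a change of 1.48. PALM2, a paralemmin, went from 5.10 and 5.43 to 6.76 and 6.72, a change of 1.48 and larger on number 1. Control 2 of SPOCD1 and ANTXR2 and control 1 of ACTA1 and PALM2 were below background.

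**Figure D2:**
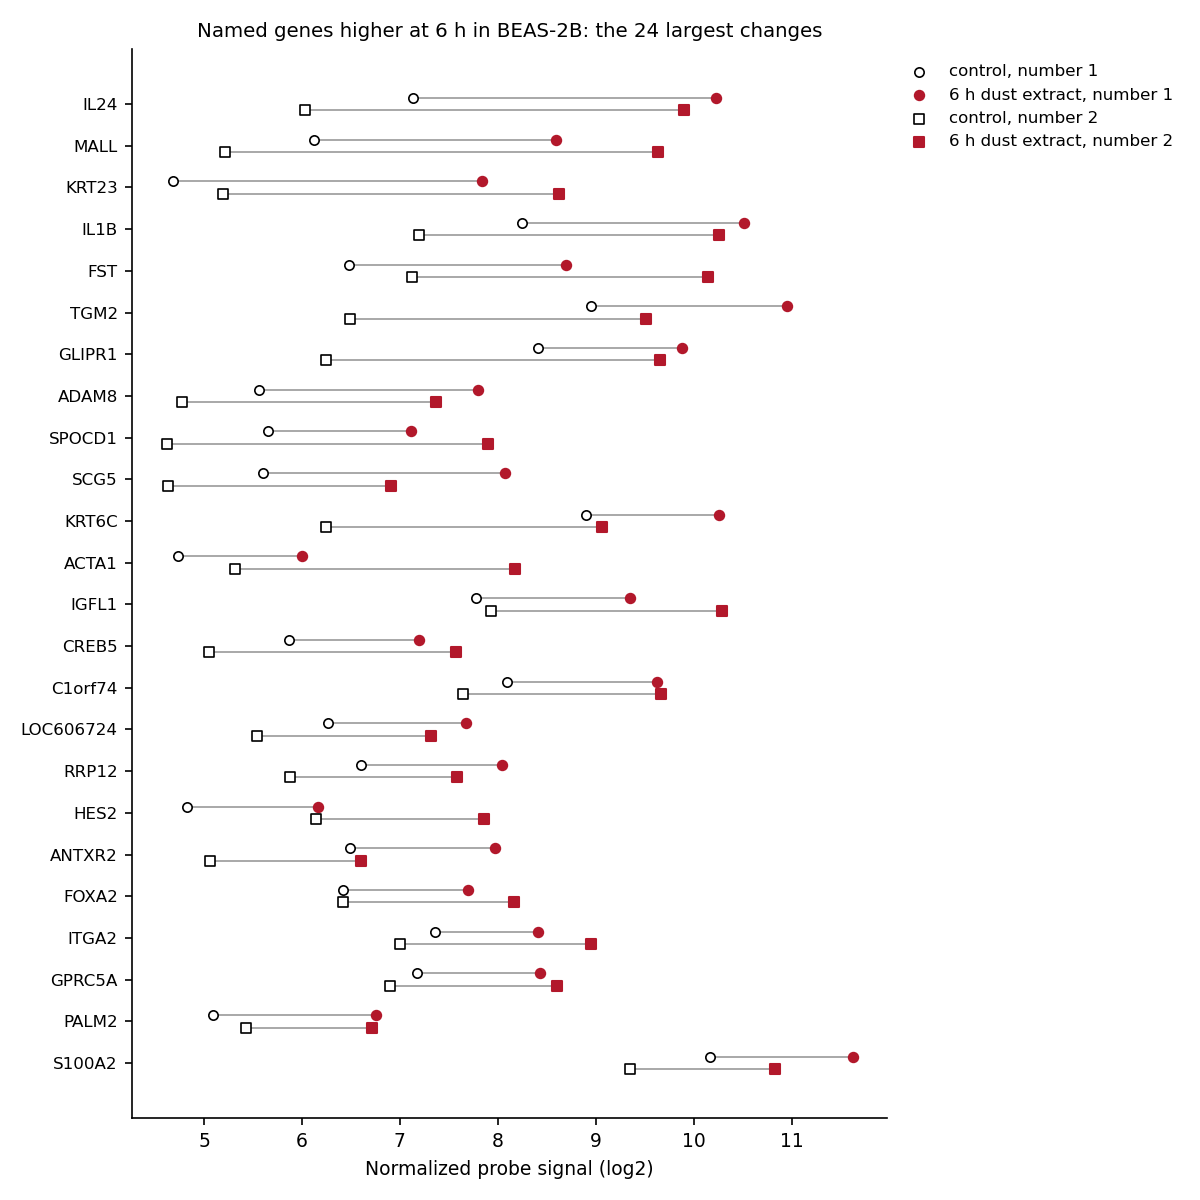
Normalized log2 signal (x axis) of the 24 named genes with the largest rises, largest at the top, on each of the 4 arrays: open symbols are controls and red symbols 6 h dust extract, circles are number 1 and squares number 2, and a grey line joins the arrays of 1 number. In each gene both red symbols lie to the right of the control of the same number, from 1.47 to 3.48 log2 units on average.

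Further rises took in genes of ribosome assembly and translation. RRP12, needed for export of ribosomal subunits, went from 6.60 and 5.88 to 8.05 and 7.58, a change of 1.58 ± 0.19 (adjusted p = 0.0118). RRS1, a ribosome assembly factor, rose by 1.37, DDX21, a nucleolar RNA helicase, by 1.26 and CCDC86, a nucleolar protein, by 1.20. These were 4 of 49 measured genes of a ribosome assembly list that was drawn up after the values were seen, so its count is no independent support. The list's median was 0.49, with 0.50 on number 1 and 0.57 on number 2, beside medians of 0.07 at 1 h and 0.15 in A549 at 6 h. None of its genes passed in the lower direction. At an unadjusted p under 0.05, 30 of the 49 were higher and none lower, where 12.6% of all features were either. Outside that list, METTL1 and WDR4, the subunits of a tRNA methyltransferase, rose by 1.09 and 0.98. The other WDR4 probes gave -0.46 and 0.08. SRM, spermidine synthase, rose by 1.00, ABCE1, a ribosome recycling factor, by 0.99 and NAA15, a subunit of an N-terminal acetyltransferase, by 0.92.

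The other named genes that rose had changes from 0.92 to 1.42. They included CYP27B1, which activates vitamin D (1.42), MGLL, a monoacylglycerol lipase (1.40), OSBP2, a sterol-binding protein (1.38), AKAP12, a scaffold of protein kinase A (1.38), TRIB1, a pseudokinase (1.30), ANGPTL4, an inhibitor of lipoprotein lipase (1.11), and TICAM1, an adaptor of Toll-like receptors (1.07). TICAM1 was the 1 passing gene of 12 Toll-like and other dust-sensing receptor genes, and its second probe gave 0.34. One of the other 3 AKAP12 probes gave -0.04. MICALCL, FRMD4A and SSUH2 were not well above background in either control, so their rises are bounds of at least 1.69-fold, 1.77-fold and 1.36-fold.

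Promoter sequences are shown for 4 of the genes that rose and hold a match to the AP-1 motif, and for CCDC86 of the ribosome assembly list. Each is the 250 bases before the gene's first listed start in RefSeq (GRCh38.p14), written 5′ to 3′ on the gene's strand. Capitals mark motif matches. TGANTCA, with N any base, was searched for AP-1, and N was T in FST and in the second EMP1 match. In CCDC86 they mark TGACGTCA, the cyclic AMP response element, followed by CACGTG, the E-box.
FST, chr5:53480379-53480628, plus strand: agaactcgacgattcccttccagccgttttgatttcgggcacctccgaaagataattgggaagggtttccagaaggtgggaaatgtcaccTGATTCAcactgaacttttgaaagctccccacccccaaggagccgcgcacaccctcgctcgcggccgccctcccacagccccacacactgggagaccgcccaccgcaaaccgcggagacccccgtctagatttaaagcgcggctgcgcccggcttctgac
S100A2, chr1:153565845-153566094, minus strand: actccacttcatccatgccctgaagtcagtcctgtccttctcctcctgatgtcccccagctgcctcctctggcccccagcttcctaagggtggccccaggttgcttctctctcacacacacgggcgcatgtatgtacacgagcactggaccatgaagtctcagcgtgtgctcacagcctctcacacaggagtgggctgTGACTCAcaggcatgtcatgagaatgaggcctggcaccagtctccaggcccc
OSBP2, chr22:30764003-30764252, plus strand: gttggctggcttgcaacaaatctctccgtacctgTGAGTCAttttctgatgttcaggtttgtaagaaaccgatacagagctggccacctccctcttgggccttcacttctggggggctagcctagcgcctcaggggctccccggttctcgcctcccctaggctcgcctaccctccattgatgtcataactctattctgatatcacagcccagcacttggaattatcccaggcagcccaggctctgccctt
EMP1, chr12:13196476-13196725, plus strand: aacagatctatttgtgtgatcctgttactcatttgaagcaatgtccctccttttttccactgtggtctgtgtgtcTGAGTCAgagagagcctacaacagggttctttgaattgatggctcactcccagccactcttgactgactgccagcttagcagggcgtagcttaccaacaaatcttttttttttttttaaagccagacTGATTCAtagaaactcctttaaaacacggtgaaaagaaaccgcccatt
CCDC86, chr11:60841863-60842112, plus strand: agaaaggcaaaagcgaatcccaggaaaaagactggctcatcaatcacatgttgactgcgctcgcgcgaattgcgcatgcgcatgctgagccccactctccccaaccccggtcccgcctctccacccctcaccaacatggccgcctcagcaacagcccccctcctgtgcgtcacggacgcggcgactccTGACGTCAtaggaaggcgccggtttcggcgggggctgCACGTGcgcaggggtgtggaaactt

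The AP-1 match began 160 bases before the start in FST, 52 in S100A2, 216 in OSBP2, and 175 and 48 in EMP1. Windows of 300 bases, 250 before to 50 after the start, were found for 48 of the 72 named genes that rose, and 4 of the 48 (8.33%) held the motif on either strand. The share was 4.93% of the 10336 tested named genes with a window and 7.71% of all 35116 windows. Of the 17 windows of genes that fell, 2 held it (11.8%). The E-box was in 7 of the 48 (14.6%) against 9.84% of tested named genes, and in 14 of 42 windows (33.3%) of the ribosome assembly list. For the cyclic AMP response element these were 2 of the 48 (4.17%), near the 3.22% of tested named genes, and 4 of 42 (9.52%). A match describes letters only, and binding was not measured here.

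Fewer genes fell. OVOL2, a zinc finger repressor that maintains epithelial identity, read 6.60 and 8.55 in controls and 5.04 and 5.35 at 6 h, a change of -2.39 ± 0.33 (adjusted p = 0.0199). Its signal on 6 h array 1 was below background. KANK4, a cytoskeletal adaptor, read 8.73 and 8.98 in controls and 6.41 and 6.69 at 6 h, a change of -2.30 ± 0.31, and its second probe gave -2.62. KANK4 was the only fall that also passed without the block (adjusted p = 0.0481), and its 2 arrays of each group lay close together. TNNI2, a troponin subunit of fast muscle, went from 7.73 and 8.88 to 6.08 and 6.91, a change of -1.81 ± 0.18 (adjusted p = 0.00327). TRIM6, a ubiquitin ligase, went from 7.02 and 6.96 to 5.56 and 4.94, a change of -1.74. MMP28, a matrix metalloprotease of epithelia, went from 7.18 and 6.14 to 5.36 and 4.90, a change of -1.53 ± 0.20. Both TRIM6 and MMP28 were below background on 6 h array 2. For MMP28 a second probe, detected on all 4 arrays, gave -0.03, so the probes disagree. 

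Receptors and ligands of developmental pathways were among the falls. FGFR3, a receptor for fibroblast growth factors, went from 8.69 and 8.89 to 6.84 and 7.86, a change of -1.44 ± 0.21, and was the 1 passing gene among 9 of its list. A second FGFR3 probe gave a smaller fall, -0.70. WNT10A, a WNT ligand, went from 7.25 and 7.30 to 6.04 and 5.86, a change of -1.32 ± 0.19. FZD2, a WNT receptor, fell by 1.00 on the log2 scale, and these were 2 of 20 WNT pathway genes. The groups did not overlap for any of the 3, as was so for 31.9% of all features. LMO1, a LIM domain transcription cofactor, went from 6.53 and 5.64 to below background on both 6 h arrays, at least 1.77-fold lower. ARHGAP22 went from 6.07 and 6.71 to below background, at least 2.20-fold lower. ZNF467, a zinc finger protein, went from 5.97 and 5.63 to below background, at least 1.46-fold lower. These 3 were measured in the controls only. PAPLN, a matrix protein, went from 6.57 and 6.96 to 5.38 and 5.66, a change of -1.25 ± 0.16. TRANK1 went from 8.49 and 6.41 to 7.46 and 5.01, a change of -1.22 with overlapping groups, and was below background on 6 h array 2.

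The 12 named falls smaller than these 12 largest ran from -1.21 to -0.87. They included DDB2, which recognises ultraviolet damage in DNA (-1.21), ULK1, a kinase that starts autophagy (-1.08), S1PR5, a sphingosine phosphate receptor that was below background on both 6 h arrays (at least 1.92-fold lower), and ALDH3A1, an aldehyde dehydrogenase and 1 of 6 aryl hydrocarbon receptor targets (-0.87). CYP1A1, another of those targets, read 5.05 and 7.10 in controls and was below background on control 1 and on both 6 h arrays. Its bound of at least 1.77-fold lower therefore rests on number 2, and no fall could be measured on number 1. It did not pass (adjusted p = 0.211). Nearest to the threshold, FLT3LG, TRANK1 and DDB2 lay just inside with adjusted p of 0.0456, 0.0462 and 0.0499, and GBP4, MAL2 and CD276 just outside with 0.0501, 0.0524 and 0.0529.

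**Figure D3:**
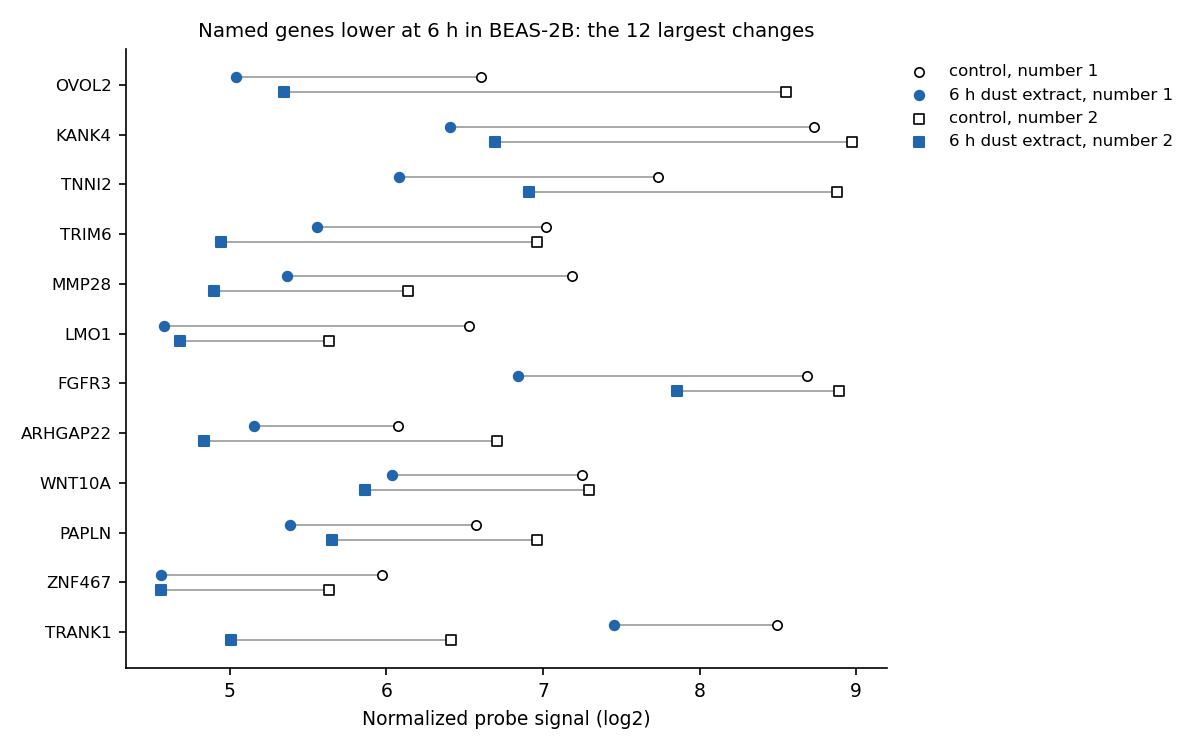
Normalized log2 signal (x axis) of the 12 named genes with the largest falls, largest at the top, on each of the 4 arrays: open symbols are controls and blue symbols 6 h dust extract, circles are number 1 and squares number 2. Each blue symbol lies to the left of the control of the same number, and in TRANK1 the number 1 extract array still exceeds the number 2 control.

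Interferon-stimulated genes, which encode antiviral effectors, had the lowest median of the 32 lists, -0.60, with none of 31 passing in either direction. At an unadjusted p under 0.05, 15 of the 31 were lower and none higher, where 1253 of all 20060 features were lower. Their median change was -0.96 on number 1 and -0.18 on number 2, and 21 of the 31 were lower on both numbers, as were 6179 of all 20060 features. On number 2 the list reached below background, with lowest values of 4.65 in control and 4.55 at 6 h. The dimmest detected signals on those arrays were 5.22 and 5.26. The count of 21 may therefore include falls on number 2 that could not be measured. The groups did not separate for any of the 31, because the numbers differed so much in control (a median of -4.04 for number 2 minus number 1). On number 1 the median log2 signal was 12.09 in control, 12.05 at 1 h and 10.94 at 6 h. On number 2 it was 7.59, 7.81 and 7.50. IFI6, a mitochondrial protein and among the 3 members with the highest mean level, read 13.98 and 11.17 in controls and 13.68 and 10.86 at 6 h, a change of -0.31 (adjusted p = 0.563). ISG20, an exonuclease, had the one positive change of the list, 0.41. APOL1 and TRIM5, both known to be inducible by interferons but outside the list, fell by 1.21 and 1.11 on the log2 scale with higher levels on number 1. They were taken from the genes that passed. APOL1 was below background on 6 h array 2, and its second probe gave -0.21. The other TRIM5 probes gave only -0.11 and -0.47 on number 2. The part that the difference between the numbers plays in these values was not tested.

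Of the 32 lists, 18 held a passing gene and 14 held none, and 29 of the 96 named genes stood in a list. Besides the chemokine, NF-kB and interferon lists, no gene passed among 28 of cell cycle and DNA replication (median -0.19), 20 cytokine receptors (0.06), 18 of oxidant defence under NRF2 (-0.05), 17 of the integrated stress and unfolded protein response (0.10), 16 of hypoxia and glycolysis (-0.01), 16 of extracellular matrix and collagens (0.12), 14 of plasminogen activation and coagulation (0.34), 12 heat shock proteins (-0.06), 12 of prostaglandin metabolism (0.20), 11 of cholesterol synthesis (-0.17) and 7 metallothioneins (0.24). HMOX1, an oxidant response gene, had a change of 0.34 (adjusted p = 0.499). A gene that did not pass is not shown to be unchanged, since the median SE was 0.197 log2 units.

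**Figure D4:**
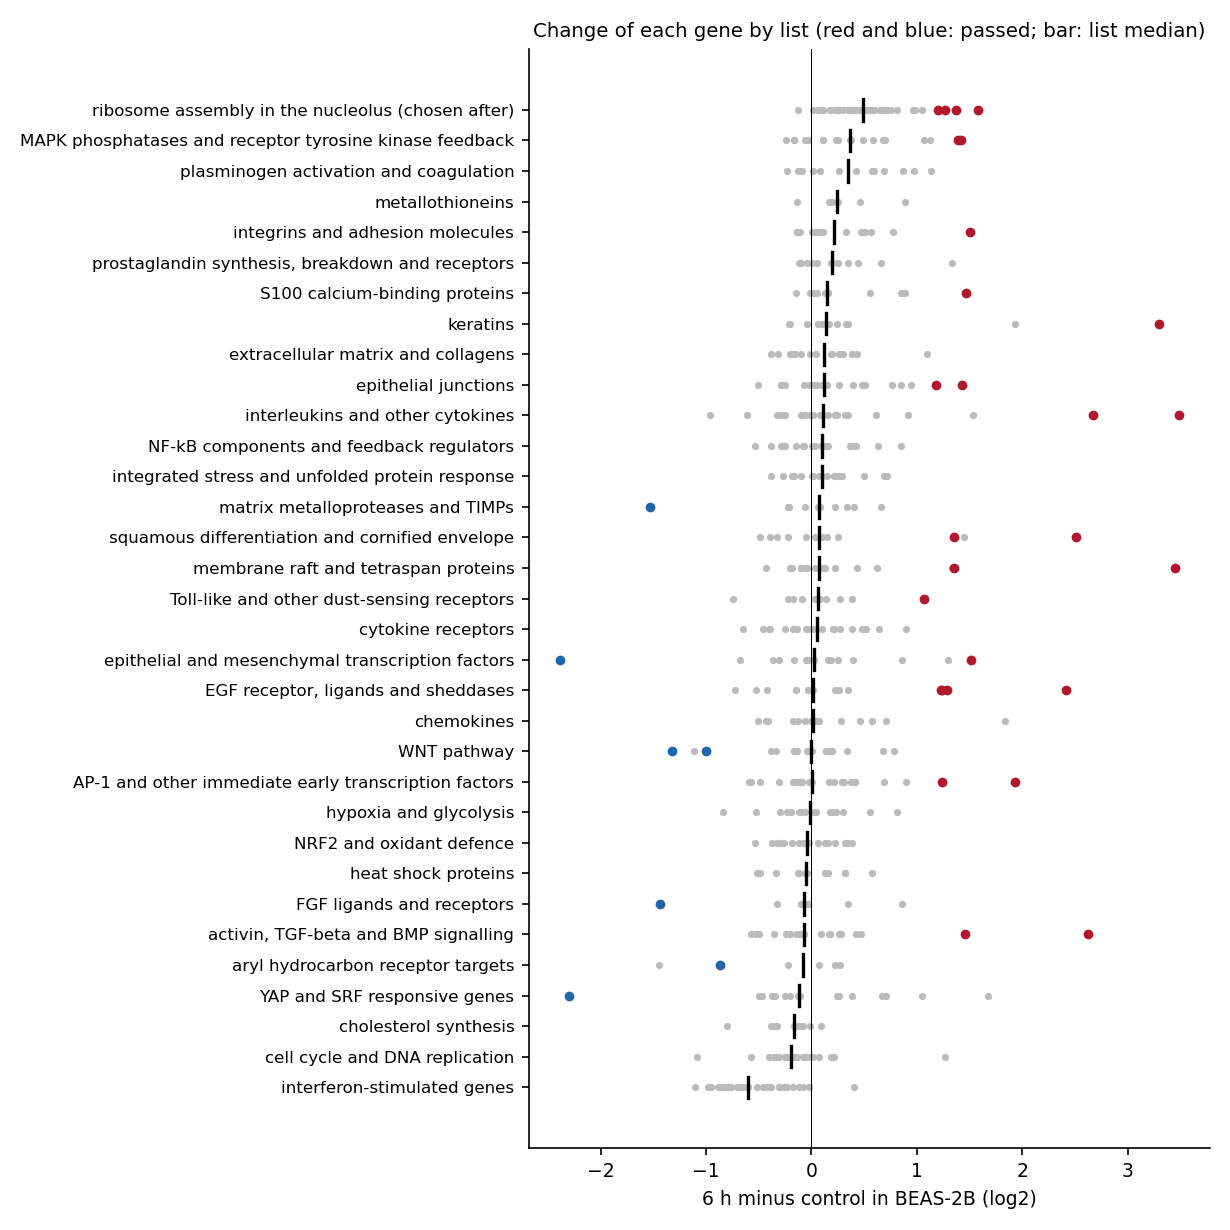
Each row is a gene list and each point 1 measured gene at its log2 difference between 6 h dust extract and control in BEAS-2B; red and blue points passed and black bars are list medians. Medians of the 32 lists run from -0.60 for interferon-stimulated genes to 0.37 for MAPK phosphatases and feedback inhibitors. A further row, the ribosome assembly list chosen after the values were seen, has a median of 0.49. The passing genes lie far out from their lists' medians, as passing depends on the size of the change.

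The 6 h arrays were next set against the 1 h arrays of the same line, to see which changes came late. In this test 135 features passed (0.673%), 55 higher at 6 h (0.274%) and 80 lower (0.399%), and 12 passed without the block (0.0598%), 2 higher (0.00997%) and 10 lower (0.0499%). Of the 72 named genes higher at 6 h than in control, 25 were also higher than at 1 h. SCG5 led them with 2.42 ± 0.18 (adjusted p = 0.000937), followed by MALL (2.16), TGM2 (2.05), KRT23 (2.00) and LOC606724 (1.51). SCG5 and TGM2 had 1 h changes of -0.05 and 0.46 that did not pass. HBEGF and TRIB1 were lower at 6 h than at 1 h, by -1.60 and -1.58, and remained above control. Of the 24 named genes lower than control, 11 were also lower than at 1 h, led by KANK4 (-2.06), TNNI2 (-1.63) and FGFR3 (-1.45), and none had passed at 1 h, where 0.0349% of all features were lower. Of the 72 higher genes 16 had passed at 1 h, where 0.503% of all features were higher, and IL24, IL1B, FST and ADAM8 were among them. The 1 h and 6 h comparisons share their control arrays, so their values are given side by side only. The 6 h arrays that chose the 72 and 24 genes also entered the test against 1 h. The counts of 25 and 11 are therefore partly set by that choice and are no independent support. The 5 named genes with the largest declines from 1 h that did not pass at 6 h were FOSB (-5.78), an AP-1 subunit, ATF3 (-3.39), a stress-induced transcription factor, CCN2 (-3.18), a matrix-associated secreted protein, PTGER4 (-2.97), a prostaglandin receptor, and PTGS2 (-2.39). The 6 h changes from control were 0.00, -0.58, -0.50 and -0.12 for the first 4, and the bound given above applies to PTGS2. Leaving out 1 array moved the count of 135 to 13 without 1 h array 1, 8 without 1 h array 2, 29 without 6 h array 1, 65 without 6 h array 2, 48 without either A549 control, 61 without either A549 1 h array and 64 without either A549 6 h array.

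The change at 6 h was then tested against that of A549 at the same dose and time. The line difference passed for 21 features (0.105%), 10 with the higher change in BEAS-2B (0.0499%) and 11 with the higher change in A549 (0.0548%). Without the block 2 features passed (0.00997%), both with the higher change in BEAS-2B (0.00997%). Among the named genes above, IL24 (3.46 ± 0.31), KRT23 (3.40), SCG5 (2.51), ADAM8 (2.49), IL1B (2.46) and FOXA2 (1.83) had a higher change in BEAS-2B. Their A549 changes lay between -0.32 and 0.20 and none passed. TNNI2 (-2.02), MMP28 (-2.09) and PAPLN (-1.65) had a lower change in BEAS-2B, against A549 changes of 0.21, 0.56 and 0.41 that did not pass. The MMP28 difference holds for the reported probe only, since a second probe gave a BEAS-2B change of -0.03. For 8 other named genes the difference passed while BEAS-2B did not, and all 8 had passed in A549. LTB, a cytokine of the tumour necrosis factor family, was the largest with -3.69 (BEAS-2B -0.06, A549 3.63), and CXCL5, a neutrophil chemokine, had -2.38 (BEAS-2B 0.00, A549 2.38). GPRC5A, HBEGF, OSBP2 and GJB2 passed in both lines, with A549 changes of 1.84, 1.62, 1.53 and 1.38, as 4 of the 96 named genes, where 0.239% of all features were higher and 0.0399% lower in A549 at 6 h. MALL (3.27, adjusted p = 0.0609) and TGM2 (1.97, adjusted p = 0.142) did not pass the line difference. The count of 21 fell to 0 without A549 control 1 (1479 at an unadjusted p under 0.05) and to 4 without A549 control 2, 2 and 8 without A549 6 h arrays 1 and 2, 9 without either A549 1 h array, 12 and 2 without BEAS-2B controls 1 and 2, 5 without BEAS-2B 6 h array 2, and 8 without either BEAS-2B 1 h array.

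**Figure D5:**
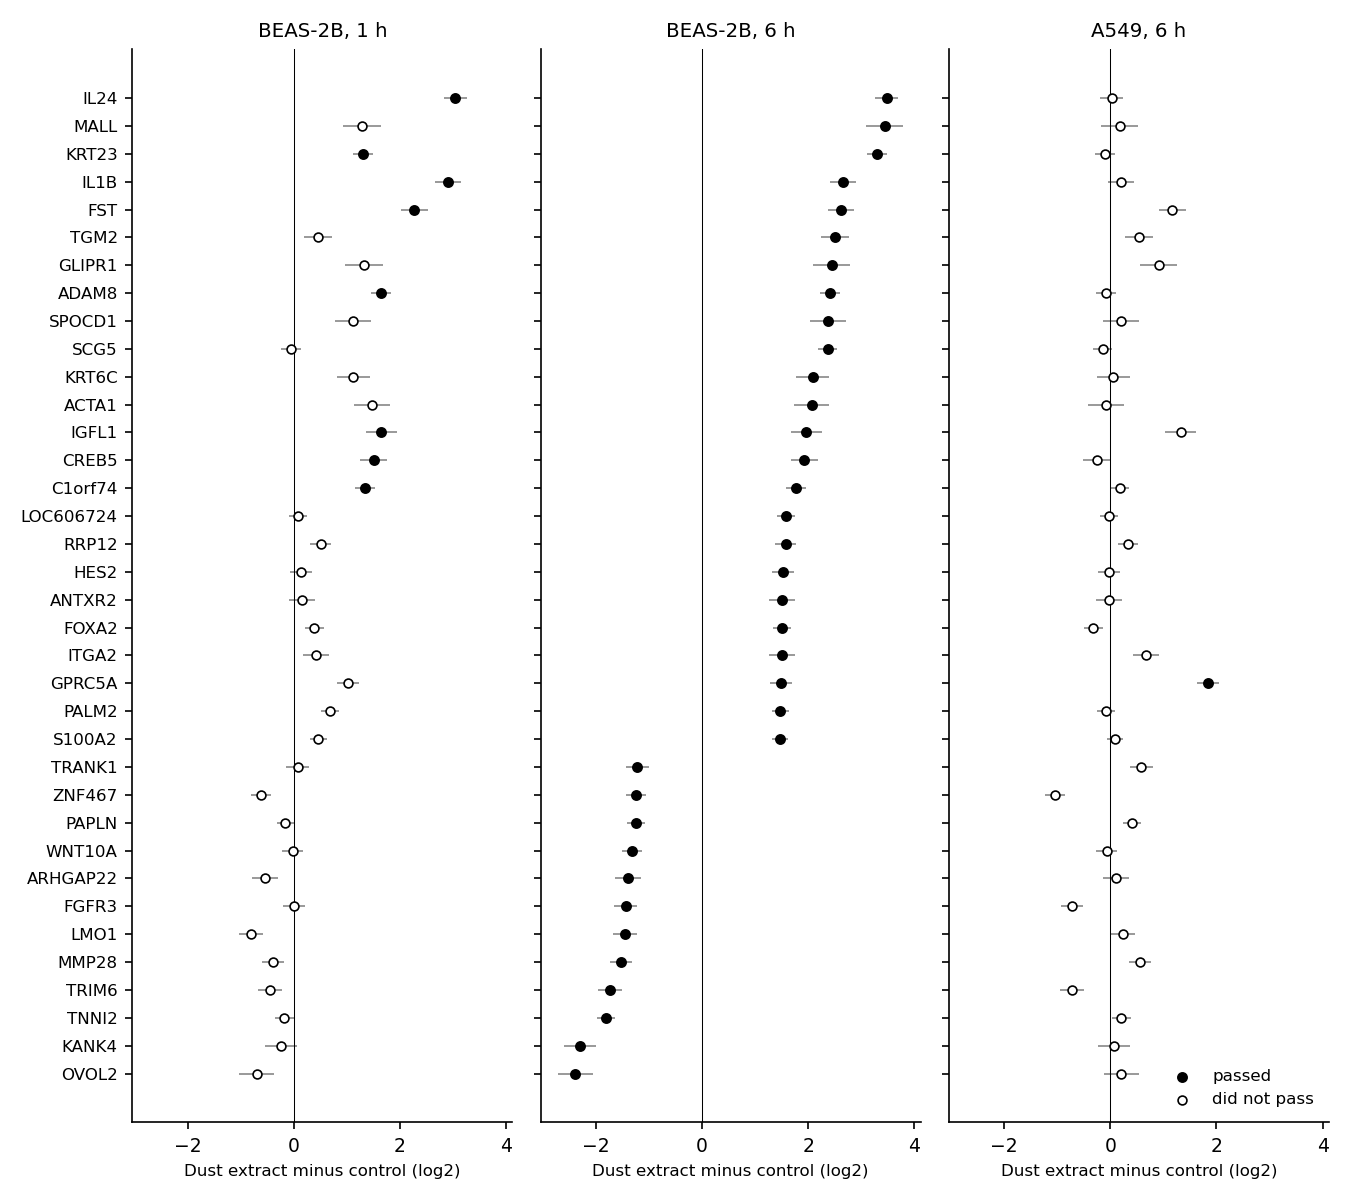
Log2 difference between dust extract and control (x axes) for the 24 largest rises and 12 largest falls of BEAS-2B at 6 h. Panels show BEAS-2B at 1 h (left), BEAS-2B at 6 h (centre, which chose the genes) and A549 at 6 h (right). Bars are the SE of the fit to all 12 arrays, not the spread of the 2 arrays per group. Filled points passed and open points did not; only GPRC5A is filled in the A549 panel, and no falling gene is filled at 1 h.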

How the data were processed

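Total RNA from BEAS-2B and A549 was hybridised to Illumina bead arrays. The authors deposited mean bead signals as linear intensity values, not normalized, and a detection p-value per probe; GenomeStudio 2011.1 is named per the submitters' processing notes. The 24 deposited columns of other bead statistics were not used. The probes numbered 47320: 30112 carried 1 gene symbol, 8 several and 17200 none here.

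Signals were processed with neqc in limma 3.58.1 (R 4.3.3): normexp background correction with negative controls inferred from detection p, an offset of 16, quantile normalization and log2. Probes detected (p under 0.05) on at least 2 of 12 arrays were kept (24467), with the brightest probe per named gene, giving 20060 features. The fit held 6 group means and replicate number as a block within each line (4 residual and 5.67 prior degrees of freedom); contrasts were tested with eBayes and Benjamini-Hochberg adjustment over all features. Pairing is not stated in the labels: same-numbered samples deviated from their group means together, with correlations of 0.645, 0.583 and 0.528 in BEAS-2B and 0.468, 0.405 and 0.404 in A549. A gene not detected on any array of a group has only a bound, its fold taken against the dimmest detected signal. The fitting function was tested on simulated data.

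Any named gene that passed and moved the same way on both numbers could be named. Array values were given for the 24 largest rises, 12 largest falls and genes passing without the block, and 18 panel genes were named whatever their result. The genes and lists were chosen with earlier results of these data known. Fold changes are on the log2 scale of normalized intensity, which understates dim genes.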

Additional observations from a re-analysis of the deposited data

Results flagged for a closer look

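The change at 6 h differed between BEAS-2B and A549 for 21 features by the test of the difference itself. Given as the BEAS-2B change minus the A549 change on the log2 scale, the named genes were IL24 (3.46), KRT23 (3.40), SCG5 (2.51), ADAM8 (2.49), IL1B (2.46), FOXA2 (1.83) and BAAT (2.07) on the higher side. On the lower side were LTB (-3.69), GKN2 (-2.48), IL32 (-2.46), CXCL5 (-2.38), VSIR (-2.25), MMP28 (-2.09), TNNI2 (-2.02) and PAPLN (-1.65). For MMP28 a second probe gave a BEAS-2B change of -0.03, so its probes disagree. The remaining 2 of the 17 named genes, TMEM158 (-1.84) and SOX8 (-1.83), fall outside the rule for named genes and were chosen after their values were seen. BAAT, a bile acid conjugating enzyme, had a change of 0.05 in BEAS-2B and of -2.01 in A549.

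Within BEAS-2B the 6 h and 1 h arrays differed for 135 features. The genes higher at 6 h than at 1 h included SCG5 (2.42), MALL (2.16), TGM2 (2.05), KRT23 (2.00), LOC606724 (1.51), UBASH3B (1.36), NLN (1.34), SNORD22 (1.34), FRAT2 (1.34) and TSPAN18 (1.33). The last 5 did not pass against control at 6 h, with changes from 0.19 for FRAT2 to 1.12 for TSPAN18. The genes lower at 6 h than at 1 h included FOSB (-5.78), ATF3 (-3.39), CCN2 (-3.18), PTGER4 (-2.97), PTGS2 (-2.39), KANK4 (-2.06), TNNI2 (-1.63), HBEGF (-1.60), TRIB1 (-1.58) and FGFR3 (-1.45).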

How the results depend on the processing

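The counts of passing features for 6 h against control, 6 h against 1 h and the line difference were 114, 135 and 21 with the replicate block, and 13, 12 and 2 without the replicate block. They were 430, 404 and 124 with quantile normalization and no background correction, and 415, 411 and 113 with a variance trend and robust fit. Without a detection filter, 73 features passed against control and 6 in the line difference. With number 1 of BEAS-2B alone they were 6, 12 and 3, and with number 2 alone 50 against control and 22 against 1 h. The 6 BEAS-2B arrays alone gave 8 and 7, and the 4 compared arrays alone 1 against control. Leaving out 1 array gave 13 to 92, 8 to 125 and 0 to 19. Of the 96 named genes, 10 also passed without the block, 94 with quantile normalization alone and 96 with the trend fit. When 1 array was left out, the change against control ranged from -0.01 to 0.93 for CXCL1, from -0.20 to 0.35 for CCL20, from -0.52 to 0.97 for IL6 and from -0.57 to 0.57 for FOSB. With number 1 alone CCL20 and IL6 were at -0.21 and -0.48, and with number 2 alone FOSB was at -0.47. Causes of these shifts were not tested, except that fits with fewer arrays have fewer degrees of freedom. With 2 arrays per group, small changes were not detectable.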

Other observations

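The unnamed features that passed comprised 17 higher and 1 lower. ILMN_2150851 and ILMN_2150856 rose by 4.28 and 4.02 log2 units, more than any named gene, and ILMN_1762308 fell by 1.19. These probes carried no gene symbol here.

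Of the 96 named genes that passed, 31 had other probes on the array, 39 in all. The change had the opposite sign on 3 of the 39, for AKAP12, SH2D5 and WDR4, and was at least 50% as large as on the reported probe for 21 of them. CTSC, a lysosomal protease, gave 1.00 on the reported probe and 1.19 and 1.47 on its other probes. TRIM5 gave -1.11, -0.64 and -0.93.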
